A study of Mus musculus with 165 samples.

Results

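The C/EBP family was followed through the differentiation of PUER cells, as the 6 genes *Cebpa*, *Cebpb*, *Cebpd*, *Cebpe*, *Cebpg* and *Cebpz*, taken by symbol from the 36255 genes of the deposited table. PUER is a mouse blood progenitor line (bone marrow-derived by the labels, while the study's text names both fetal liver and bone marrow) of genotype Spi1-/-, that is, without a working gene for the transcription factor PU.1, into which PU.1 was put back fused to the hormone-binding part of the estrogen receptor. The ligand 4-hydroxy-tamoxifen (OHT) switches the fusion protein on. All groups share this genotype and fusion, the undifferentiated cells included, and the line is a single cell line, so that no second clone or animal stands behind any value. RNA-Seq of polyA RNA was made from undifferentiated cells kept in IL3 at 5 ng/ml (3 libraries), from cells moved to GCSF at 10 ng/ml for 48 h without OHT (GCSF 0h, 3 libraries), and from 27 time points between 1h and 168h after OHT, at 100 nM in GCSF (GCSF-OHT, 78 libraries, toward neutrophils) and at 200 nM in IL3 (IL3-OHT, 81 libraries, toward macrophages). Cytokine, GCSF pre-treatment and OHT dose thus differ together between the 2 courses and cannot be told apart, and no course without OHT was among the samples. Replicates are wells, and each time point had a plate of its own, so plate and time point cannot be told apart either and a p-value measures the spread between wells. Left aside by the authors, IL3-OHT 96h and 144h are described separately.

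C/EBP proteins are basic leucine zipper (bZIP) transcription factors that bind DNA as dimers with each other or with related zipper proteins. C/EBPα is required for granulocyte progenitors to form and restrains the cell cycle, C/EBPε drives the later production of secondary granule proteins, C/EBPβ supports macrophage genes and emergency granulopoiesis, and C/EBPδ is an acute-phase factor induced by cytokine signalling. C/EBPγ lacks an activation domain and works as a dimer partner, among others of ATF4. *Cebpz* shares only the name: its product is no zipper protein but a nucleolar factor of large ribosomal subunit assembly. C/EBPα p42 and p30, and the long and short forms of C/EBPβ, are translated from the same mRNA and cannot be told apart in these values.

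In GRCm38 (GENCODE vM21), *Cebpa* (ENSMUSG00000034957, chromosome 7, 35119293 to 35121928, plus strand) and *Cebpb* (ENSMUSG00000056501, chromosome 2, 167688915 to 167690418, plus strand) each consist of 1 exon, as does *Cebpd* (ENSMUSG00000071637, chromosome 16, 15887286 to 15891031, plus strand). *Cebpe* (ENSMUSG00000052435, chromosome 14, 54710360 to 54712174, minus strand) has 2 exons in its longest coding transcript. *Cebpg* (ENSMUSG00000056216, chromosome 7, 35046422 to 35056573, minus strand) lies 62720 bp from *Cebpa* and points away from it. *Cebpz* (ENSMUSG00000024081, chromosome 17, 78919006 to 78937066, minus strand) has 16 exons. Protein-coding genes on the opposite strand share exonic bases with 3 members, *Tmem189* with *Cebpb* (312 of 1504 bases), *Spidr* with *Cebpd* (562 of 3746) and *Cebpzos* with *Cebpz*. Antisense genes that are not in the deposited table share 51 bases with *Cebpa* (*Gm45091*) and 4 with *Cebpg* (*Gm45095*). Reads from shared bases may have been split, since use of strand is not stated.

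The promoter windows below are the 250 bases before the annotated start (RefSeq, GRCm38.p6, 5′ to 3′ on the gene's strand), shown for the 3 members with an entry because *Cebpa* and *Cebpb* deviate together between libraries and *Cebpg* neighbours *Cebpa*. Capitals mark matches, on either strand, of TTGCG (1 arm of a C/EBP site) in *Cebpa*, of TGACG (core of a cyclic AMP response element) in *Cebpb* and of CCAAT in *Cebpg*.
Cebpa: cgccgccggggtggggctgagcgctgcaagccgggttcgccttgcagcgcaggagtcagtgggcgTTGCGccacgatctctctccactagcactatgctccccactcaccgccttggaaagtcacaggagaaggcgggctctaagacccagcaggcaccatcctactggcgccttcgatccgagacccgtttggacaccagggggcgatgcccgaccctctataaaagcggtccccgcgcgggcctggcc
Cebpb: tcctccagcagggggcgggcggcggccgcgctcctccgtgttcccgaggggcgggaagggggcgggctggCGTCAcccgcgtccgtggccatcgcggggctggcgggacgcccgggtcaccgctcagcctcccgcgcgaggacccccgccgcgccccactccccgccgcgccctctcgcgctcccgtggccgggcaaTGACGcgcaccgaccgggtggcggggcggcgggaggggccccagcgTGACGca
Cebpg: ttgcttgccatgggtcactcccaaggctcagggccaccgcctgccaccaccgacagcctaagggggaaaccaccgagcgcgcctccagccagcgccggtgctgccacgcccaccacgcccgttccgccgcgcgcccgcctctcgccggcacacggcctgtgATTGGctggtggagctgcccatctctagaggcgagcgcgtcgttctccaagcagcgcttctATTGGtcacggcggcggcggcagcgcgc
The *Cebpa* window (chr7:35119043-35119292, plus strand) holds 1 TTGCG, and 14.6% of 27025 windows of this length hold 1 or more. The *Cebpb* window (chr2:167688665-167688914, plus strand) holds 3 TGACG, at 180 to 176 bases (minus strand, printed as its complement), 53 to 49 and 7 to 3 bases, against 17.9% of windows with any. The *Cebpg* window (chr7:35056567-35056816, minus strand) holds 2 CCAAT on its reverse strand, 89 to 85 and 28 to 24 bases before the start, against 34.5% of windows with any. No match overlapped another, and GAGGAA, a longer form of the PU.1 site found in 23.1% of windows, matched none of the 3. Its inner GGAA was not searched for and stands in all 3 windows. These are letter matches only, looked for after the sequences had been seen.

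Reads on genes ran from 14600246 to 33147945 per library (median 21960878), and 3 reads, the least that counting error lets stand apart from 0, equal a normalized count of 1.96 to 5.51. All 6 members passed the filter on low values, and the lowest count of a member in any library was 630 reads (*Cebpe*), so counting error was small for all of them. Of 8 neutrophil marker genes all were detected in every kind of sample, with a summed normalized count of 246174 to 254188 in undifferentiated cells, 296420 to 756427 in GCSF-OHT and 147068 to 340885 in IL3-OHT. Of 7 macrophage markers the sum ran from 2099 to 2348 in undifferentiated cells and from 594 to 830 at GCSF 0h. It ran from 707 to 2371 in GCSF-OHT and from 1654 to 5340 in IL3-OHT. *C1qa*, a macrophage complement gene, lay at or under 3 reads throughout. Of 5 progenitor markers 4 exceeded 3 reads in undifferentiated cells, where the sum ran from 11252 to 12518. It ran from 2669 to 7608 in GCSF-OHT and from 2385 to 15467 in IL3-OHT. *Cd34*, the remaining progenitor marker, was at or under 3 reads in undifferentiated cells and at GCSF 0h. In bulk RNA, fewer cells of a type and less RNA per cell cannot be told apart. Reads of *Spi1* (4482 to 13387 normalized counts over the OHT libraries) could come from the fusion or from the disrupted gene and were not separated.

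Throughout, a gene counts as called (a DEG) when its adjusted p is under 0.05 (Benjamini-Hochberg over 17414 genes) and its absolute log2 fold change exceeds 0.58 on the log2(normalized count + 1) scale, from 1 limma fit over all libraries but the 6 of IL3-OHT 96h and 144h. Values of single libraries are normalized counts. Levels of different genes are compared per kilobase of the longest coding transcript.

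**Figure D1:**
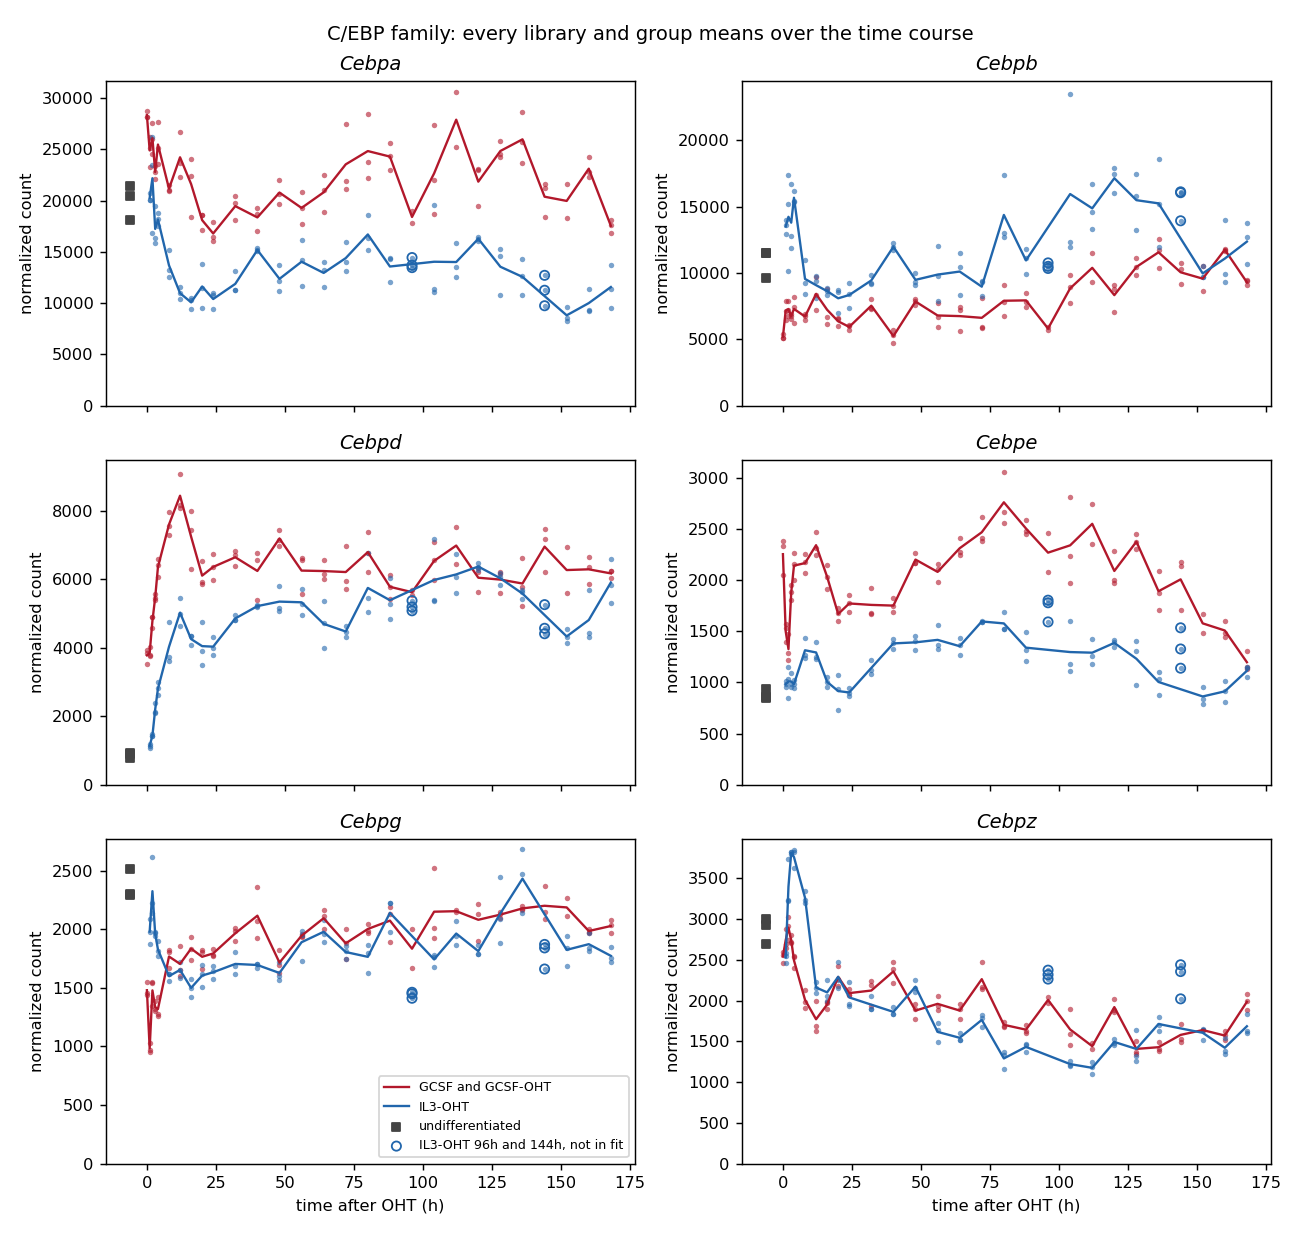
Normalized count (linear axis) of each C/EBP gene against hours after OHT, with a point per library, lines through the group means, squares for undifferentiated cells and open circles for IL3-OHT 96h and 144h, which were not in the fit. *Cebpa* and *Cebpe* ran higher in GCSF (red) than in IL3 (blue), *Cebpb* ran lower for most of the course, and *Cebpd* climbed from about 862 in undifferentiated cells to above 5000 in both.

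Before OHT, the GCSF pre-treatment alone had changed 4 of the 6 genes, in opposite directions. *Cebpd* and *Cebpe* rose, *Cebpb* and *Cebpg* fell, and *Cebpa* and *Cebpz* did not pass the fold threshold, where 33.7% of all genes were called. *Cebpd* stood at 895, 771 and 919 in undifferentiated cells and at 3538, 3857 and 3942 at GCSF 0h (log2 fold change 2.13, SE 0.10, adjusted p = 4.91e-41). *Cebpe* went from 937, 857 and 848 to 2047, 2386 and 2329 (log2 fold change 1.35, SE 0.10, adjusted p = 3.51e-24). For both genes every GCSF 0h library lay above every undifferentiated one.

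*Cebpb* went the other way, from 11487, 9632 and 11470 to 5380, 5078 and 5126 (log2 fold change -1.06, SE 0.15, adjusted p = 4.20e-10). *Cebpg* fell from 2304, 2295 and 2513 to 1438, 1546 and 1456 (log2 fold change -0.68, SE 0.07, adjusted p = 1.73e-15). Again the groups did not overlap. *Cebpa* was at 20490, 18130 and 21435 and then at 28139, 28741 and 28124, without overlap, but its log2 fold change of 0.50 (95% interval 0.26 to 0.75) stayed under the threshold. *Cebpz* differed by -0.18 (interval -0.31 to -0.04).

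These shifts altered the make-up of the family. In undifferentiated cells *Cebpa* and *Cebpb* were level per kilobase, with 46.8% ± 0.625 and 44.3% ± 0.775 (SD, n = 3) of the summed per-kilobase count of the 5 zipper genes, and *Cebpe* (4.37%), *Cebpg* (3.10%) and *Cebpd* (1.41%) made up the rest. At GCSF 0h *Cebpa* held 62.1% ± 0.325, *Cebpb* 19.9% ± 0.840, *Cebpe* 10.4% ± 0.738, *Cebpd* 5.80% ± 0.288 and *Cebpg* 1.81% ± 0.0499. The per-kilobase ratio of *Cebpa* to *Cebpb* was 1.06 ± 0.0306 in undifferentiated cells and 3.13 ± 0.124 at GCSF 0h. At 168h it was 1.08 ± 0.0595 in GCSF-OHT and 0.534 ± 0.0337 in IL3-OHT. It was thus lower at the end of each course than at its start, and the libraries at the end did not overlap those at the start in either course.

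**Figure D2:**
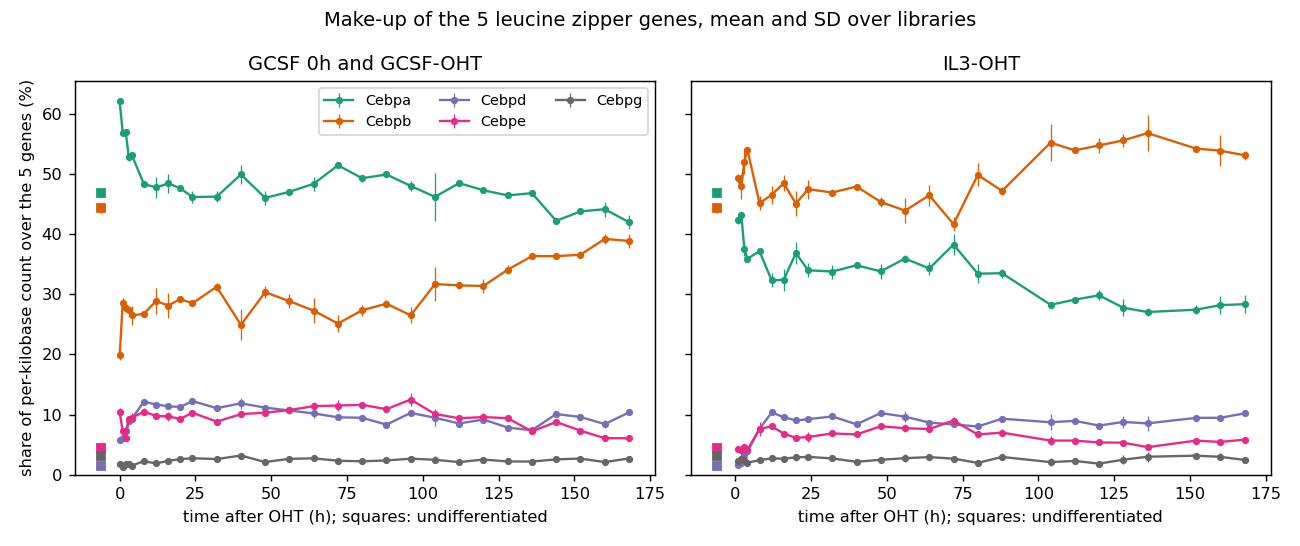
Share of the summed per-kilobase count of *Cebpa*, *Cebpb*, *Cebpd*, *Cebpe* and *Cebpg* (percent, linear axis from 0) against hours after OHT, with lines through group means, bars of 1 SD over libraries and squares for undifferentiated cells. In GCSF *Cebpa* held the largest share at every time point drawn and fell from 62.1% to 42.0%, while in IL3 *Cebpb* led, with 53.1% at 168h.

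All 6 genes changed over both time courses (moderated F over all time points, with at least 1 of them past the fold threshold), as did 69.7% of all genes in IL3 and 47.7% in GCSF. The comparisons within a course share the same 3 starting libraries, and the 2 endpoint comparisons with undifferentiated cells share those as well. Among the members *Cebpd*, the acute-phase factor, was the first to be called in IL3 and had the largest change there. Its libraries read 1142, 1193 and 1076 at IL3-OHT 1h, against 895, 771 and 919 at the start, and the 12h libraries held 4992, 4642 and 5441. It was called higher at 24 of 25 IL3-OHT time points, the exception being 1h. Of all gene and time-point pairs in IL3, 26.7% were called, 11% higher and 15.7% lower.

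From 2h to 12h the log2 fold change of *Cebpd* in IL3 went from 0.74 to 2.54 (SE 0.10 each), and it was 2.77 at 168h (adjusted p = 3.09e-51). The step from 2h to 3h was itself called (0.61, adjusted p = 7.15e-08), against 3.65% of all steps in IL3, but not without replicate 3 or with the GC slope of each library (the dependence of its values on GC content, described below) in the fit. In GCSF, where *Cebpd* started higher, it was called higher at 23 of 27 time points, against 15.4% of all pairs (8.39% higher, 6.99% lower), with its highest mean at 12h, where the libraries held 8175, 9066 and 8081. At 168h it stood at 6236, 6040 and 6238 in GCSF and at 6585, 5307 and 5828 in IL3, ranges that overlap.

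The OHT effect on *Cebpd* was thus larger in IL3. The difference of the 2 effects (GCSF effect minus IL3 effect, which rests on separate starting libraries) was called lower at 23 of 25 shared time points, against 21.5% of all pairs (12.8% higher, 8.75% lower), and was -2.07 at 168h (SE 0.14, adjusted p = 5.61e-27). Since *Cebpd* had already risen by 2.13 before OHT in GCSF, the 2 courses ended 2.84 (GCSF) and 2.77 (IL3) above undifferentiated cells on the log2 scale. *Spidr*, which overlaps *Cebpd*, went the other way at IL3-OHT 3h (log2 fold change -1.50, adjusted p = 1.60e-40).

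*Cebpa*, the granulocyte progenitor factor, fell in IL3. Its 3 libraries read 10964, 10424 and 11538 at 12h and 8221, 9627 and 8599 at 152h, its lowest mean, and no library of either time point overlapped the undifferentiated range of 18130 to 21435. It was called lower at 11 of 25 IL3-OHT time points (12h to 32h, 48h, 64h, 136h and 152h to 168h) and higher at none, against 15.7% of all pairs lower. Its log2 fold change at 168h was -0.80 (SE 0.13, adjusted p = 2.27e-08). Between 1h and 4h its mean lay between 17245 and 22188, and none of these time points was called.

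In GCSF 15.4% of all gene and time-point pairs were called, 6.99% lower. *Cebpa* was called lower there at 5 of 27 time points (20h, 24h, 40h, 96h and 168h), with -0.76 at 24h (SE 0.13, adjusted p = 2.68e-07) and -0.69 at 168h (SE 0.13, adjusted p = 1.01e-06). These calls moved with the GC content of the libraries' genes, as described below, and none was left once that was in the fit. At 168h the libraries held 17666, 16879 and 18087, and against undifferentiated cells the difference was -0.19 (interval -0.44 to 0.06). The difference of the OHT effects on *Cebpa* was 0.11 at 168h (SE 0.18, adjusted p = 0.66), or 0.44 with the GC slope in the fit (SE 0.12, adjusted p = 0.0011), which was not called either. It was called, toward a higher effect in GCSF, at 4 of 25 shared time points, against 21.5% of all pairs (12.8% higher).

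*Cebpe*, the granule-stage factor, dipped at once in GCSF and then recovered. From 2047, 2386 and 2329 at GCSF 0h it went to 1392, 1537 and 1573 at 1h (log2 fold change -0.59, SE 0.10, adjusted p = 9.16e-07) and to 1290, 1470 and 1219 at 2h (-0.77, adjusted p = 2.59e-10), without overlap with the start. At 3h the mean was 1880 and at 80h 2761, and neither differed from the start by more than the threshold. In IL3 there was no such dip, with 952, 984 and 1012 at 1h against 937, 857 and 848, and the difference of the 1h effects was called (-0.74, SE 0.14, adjusted p = 4.53e-05), where 2.81% of all genes were.

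At the end of the GCSF course *Cebpe* was called lower than at its start (1307, 1151 and 1135, log2 fold change -0.91, adjusted p = 3.39e-14), a call that was lost with the GC slope in the fit (-0.57). At the end of the IL3 course it read 1148, 1050 and 1143, a difference of 0.34 (adjusted p = 0.0026) that stayed under the fold threshold. In between, IL3 had 8 called time points of 25, all higher (against 11% of all pairs) and all between 40h and 120h. The largest was at 72h (0.86, SE 0.10, adjusted p = 5.41e-13). *Cebpe* at 168h thus covered 1135 to 1307 in GCSF and 1050 to 1148 in IL3, which overlap.

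*Cebpb*, the macrophage and emergency factor, rose from the first hour in GCSF and was highest late in the course. At GCSF-OHT 1h its libraries held 6481, 7135 and 7868, above the 5380, 5078 and 5126 of GCSF 0h without overlap. Of the 27 time points, 23 had an interval above 0 (unadjusted p under 0.05). *Cebpb* was called higher at 13 of 27 GCSF-OHT time points and lower at none, against 8.39% of all pairs higher. Its highest mean was at 160h, where the libraries held 11668, 11746 and 11836 (log2 fold change 1.18, SE 0.15, adjusted p = 9.22e-12). At 168h the libraries held 9400, 9437 and 9062. All those 168h libraries lay above the 5078 to 5380 of GCSF 0h and below the 9632 to 11487 of undifferentiated cells, from which they differed by -0.22 (interval -0.51 to 0.07). In IL3 *Cebpb* was called at 1 of 25 time points, 120h, with 17926, 17471 and 16008 (0.66, SE 0.15, adjusted p = 6.24e-05). The 6 libraries of 120h, in both courses, carry another library name series than all others by the labels, which cannot be told apart from time.

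The spread of *Cebpb* between wells was wide. At IL3-OHT 104h the libraries held 23512, 11965 and 12347, of which the first is the highest value of *Cebpb* in the series. Only 5 steps between consecutive time points were called for *Cebpb*, namely in IL3 the falls into 8h (-0.72) and 152h (-0.59) and the rise into 80h (0.67), and in GCSF the rises into 48h (0.59) and 104h (0.60). Most of these lay close to the fold threshold, and 3 to 4 *Cebpb* steps were called when 1 replicate number was left out (3 without replicate 1) and 1 with the GC slope of the libraries in the fit. The library that differed most from others of its group was GCSF-OHT 104h replicate 3, with a chi-square per gene of 50.6 and 73.2 against the other two (6.41 between those, median over all pairs 5.99). *Cebpb* stood at 7726, 9834 and 8959 in replicates 1 to 3 there, and without replicate 3 the count of called *Cebpb* steps was 5 as well. Medium and OHT were renewed at 40h, 88h and 136h, and whether these steps follow the renewal or the plates was not tested. *Tmem189*, whose exons overlap those of *Cebpb*, moved in the same direction at GCSF 0h (-1.74, adjusted p = 7.21e-31) and from there to 168h (1.00, adjusted p = 2.44e-15), and how reads of the shared bases were divided was not tested.

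*Cebpg*, the partner without an activation domain, dropped within the first hour of OHT in GCSF and came back in the second. Its libraries held 1438, 1546 and 1456 before OHT. The 1h libraries held 966, 950 and 1033, and those of 2h 1540, 1347 and 1548. Both steps were called (-0.59, adjusted p = 8.27e-12, and 0.59, adjusted p = 1.25e-11), against 1.81% of all steps in GCSF, and the 1h libraries overlapped neither neighbour. As both values lie at the fold threshold, 0 of the 2 steps were called when libraries were scaled by their upper quartile and 1 with the GC slope in the fit, without replicate 1 or without replicate 2. Thereafter its mean rose to 2200 at 144h without a further call.

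In IL3 *Cebpg* was called at 1 of 25 time points, 16h, with 1576, 1500 and 1422 (log2 fold change -0.66, adjusted p = 9.49e-15). For the difference of the OHT effects, 21.5% of all pairs were called (12.8% higher). That of *Cebpg* was called at 20 of 25 shared time points, all toward a higher effect in GCSF, with 0.87 at 168h (SE 0.10, adjusted p = 4.08e-13). That count rests on 2 small movements in opposite directions, 0.45 in GCSF and -0.42 in IL3 at 168h, neither of which passed the fold threshold alone. The count of *Cebpg* calls against the start, 2 over both courses, was 8 under upper-quartile scaling, 8 with the GC slope in the fit and 10 without replicate 2.

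*Cebpz*, the ribosome assembly factor, rose briefly in IL3 and then fell in both conditions. At IL3-OHT 3h it read 3824, 3819 and 3796, all above the undifferentiated 2692, 2930 and 2999 (0.41, not called), and the fall from 8h to 12h was called (-0.59, SE 0.07, adjusted p = 9.31e-13). It was called lower at 14 of 25 IL3-OHT time points, with -1.29 at 112h (adjusted p = 1.61e-35), against 15.7% of all pairs. In GCSF it was called lower at 8 of 27, with -0.85 at 128h (adjusted p = 3.45e-22), against 6.99%. At 168h it was -0.77 from the start in IL3 and -0.36 in GCSF, of which only the first was called.

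At the endpoints, 3 of 6 members were called between undifferentiated cells and IL3-OHT 168h (*Cebpa* and *Cebpz* lower, *Cebpd* higher), where 25.4% of all genes were. Between undifferentiated cells and GCSF-OHT 168h only *Cebpd* was, where 39.1% of genes were. From GCSF 0h to GCSF-OHT 168h 4 were called (*Cebpb* and *Cebpd* higher, *Cebpa* and *Cebpe* lower), where 24.8% of genes were. With the GC slope in the fit 2 of these 4 were called, *Cebpb* and *Cebpd*.

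**Figure D3:**
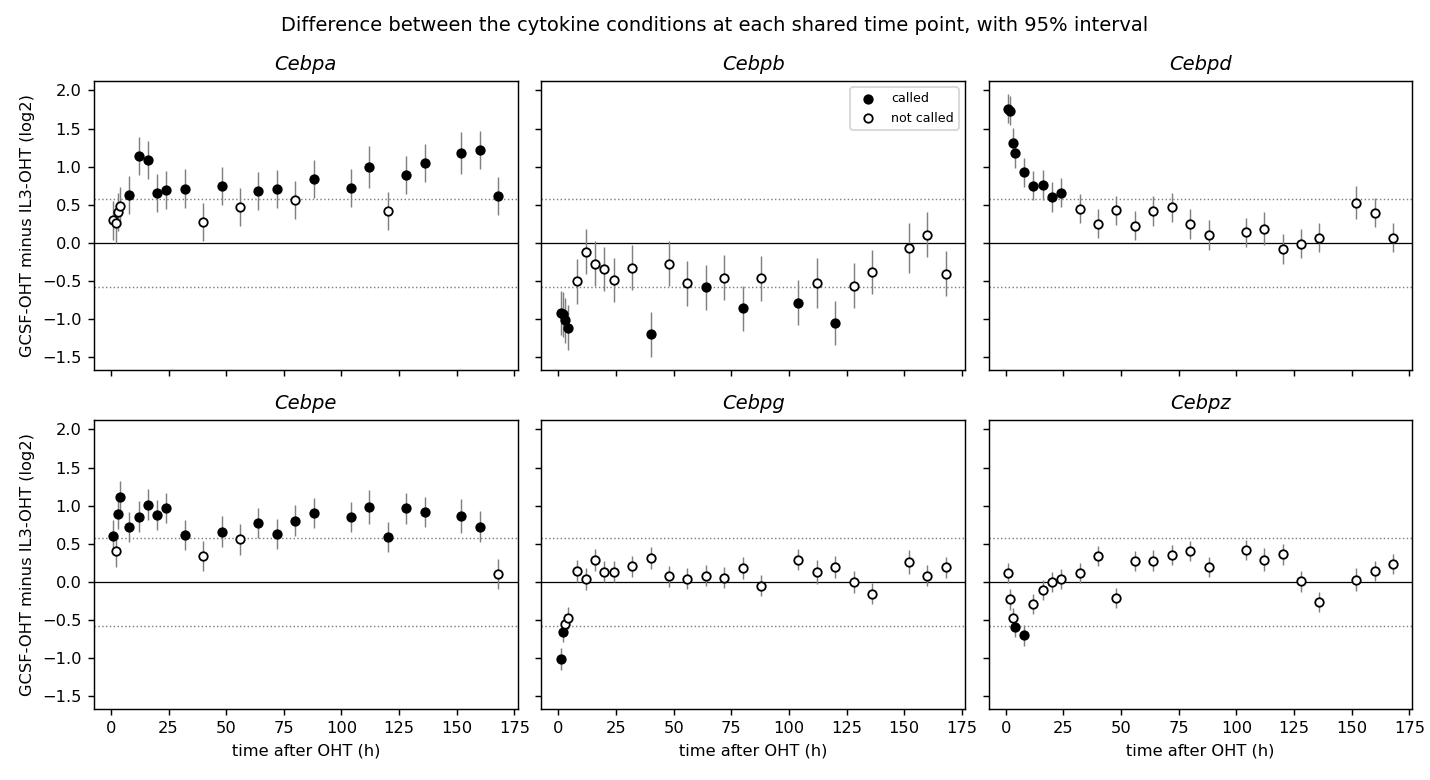
Difference of GCSF-OHT and IL3-OHT at each of the 25 shared time points, in log2 units with 95% intervals, against hours after OHT. Filled points passed both thresholds, open points did not, and dotted lines mark 0.58 in either direction. The *Cebpd* difference fell from 1.76 at 1h to 0.60 at 20h, and that of *Cebpa* was not called before 8h.

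At equal times after OHT, *Cebpa* and *Cebpe* were higher in GCSF than in IL3, *Cebpd* was called higher on the first day only, with a smaller mean difference after it, and *Cebpb* was called lower at some of the times. *Cebpe* was called higher at 21 of 25 shared time points and *Cebpa* at 17, *Cebpd* at 9, and *Cebpb* was called lower at 9 and *Cebpg* and *Cebpz* at 2 each, against 22.7% of all gene and time-point pairs (9.97% higher, 12.7% lower). Over the 78 GCSF-OHT libraries *Cebpe* ran from 1135 to 3058 (median 2052), and over the 75 IL3-OHT libraries of the fit from 734 to 1685 (median 1180). *Cebpa* ran from 16100 to 30551 (median 22080) and from 8221 to 26179 (median 13548). The ranges over a whole course overlap for both genes.

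The difference for *Cebpa* was not called in the first 4 hours and reached 1.14 at 12h (SE 0.13, adjusted p = 6.19e-14) and 1.21 at 160h (SE 0.13, adjusted p = 1.76e-15). At 168h it was 0.61 (SE 0.13, adjusted p = 1.22e-05). That of *Cebpe* was largest at 4h (1.12, SE 0.10, adjusted p = 6.63e-19) and was not called at 168h. The neutrophil marker sum given above was higher in GCSF-OHT too, and its part in these differences was not tested.

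In the mean over the shared time points 2 of the 6 members were called, *Cebpa* (0.71) and *Cebpe* (0.75), where 24.5% of all genes were. *Cebpd* and *Cebpb* lay just under the fold threshold (0.54, interval 0.50 to 0.58, and -0.56, interval -0.62 to -0.50). *Cebpd* passed it without replicate 1 (0.58) and with the GC slope in the fit (0.59), and *Cebpb* under upper-quartile scaling (-0.61), without replicate 2 (-0.59) and without replicate 3 (-0.58). For *Cebpd* all 9 time points up to 24h were called and none of the 16 after it by limma, of which 9 had an interval above 0 (unadjusted p under 0.05). The means were 1.08 (SE 0.03) up to 24h and 0.24 (SE 0.02) after it. Cells were detached with trypsin only after 24h, which cannot be told apart from time. *Cebpb* was called lower at 1h to 4h, 40h, 64h, 80h, 104h and 120h, with -1.11 at 4h and -1.20 at 40h (SE 0.15, adjusted p = 1.15e-11). With the GC slope in the fit the 40h value was -0.77 and that at 4h -1.12, and 6 time points were called in place of 9.

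*Cebpg* and *Cebpz* averaged close to 0 over the shared time points, with -0.0002 (interval -0.03 to 0.03) and 0.03 (interval 0.00 to 0.06). For *Cebpg* this mean covered -1.01 at 1h (adjusted p = 1.05e-25) and -0.65 at 2h (adjusted p = 1.73e-14), with a largest value of 0.31 after 24h. For *Cebpz* it covered -0.59 at 4h and -0.70 at 8h (adjusted p = 1.51e-13 and 3.87e-17), with a largest value of 0.42 after 24h.

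Within groups, the members did not vary independently. Over the libraries of the fit the deviations from the group mean (log2) of *Cebpa* correlated with those of *Cebpb* (Pearson's r = 0.88), *Cebpe* (r = 0.80) and *Cebpd* (r = 0.72), and inversely with those of *Cebpg* (r = -0.45) and *Cebpz* (r = -0.48). These points share the library, and r is given as a description. At IL3-OHT 104h, replicate 1 lay above its group mean by 0.53 for *Cebpa*, 0.63 for *Cebpb*, 0.28 for *Cebpd* and 0.32 for *Cebpe*, and by -0.05 and -0.03 for *Cebpg* and *Cebpz*.

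The same split follows the GC content of the transcripts. The longest coding transcripts of *Cebpb* (67.2% GC), *Cebpa* (62.6%) and *Cebpe* (61.5%) are richer in GC than 99.9%, 98.9% and 98.1% of 10263 expressed genes, *Cebpd* has 51.6%, and *Cebpg* (43.3%) and *Cebpz* (43.4%) lie below the median of 50.0%. For each library the slope of these genes' log2 deviations from the group mean on their GC content was computed (from -0.20 to 0.19 log2 per 10 points of GC). The deviation of *Cebpe* from its group mean correlated with that slope at r = 0.84, of *Cebpa* at 0.77, of *Cebpb* at 0.64 and of *Cebpd* at 0.42, and those of *Cebpz* and *Cebpg* at -0.73 and -0.71.

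**Figure D4:**
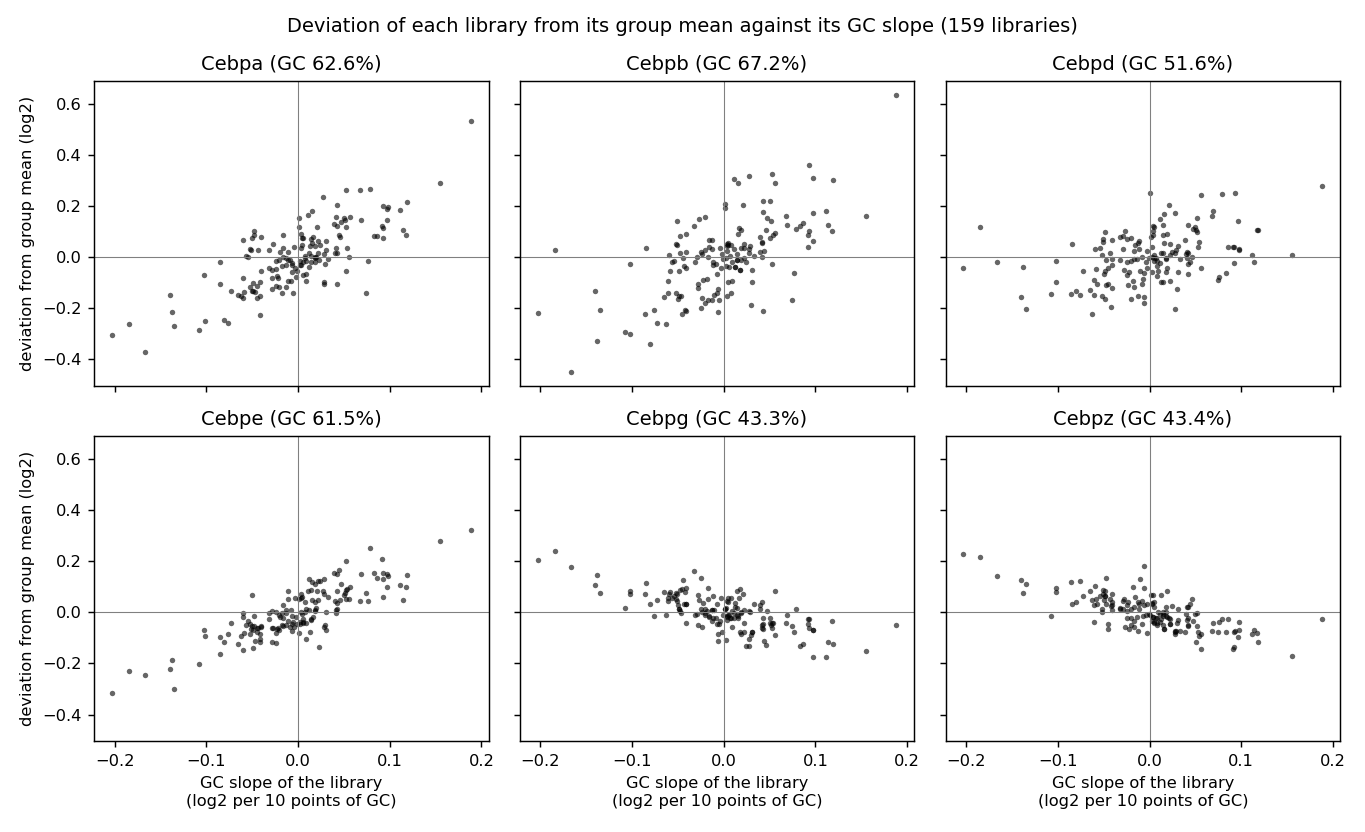
Deviation of each library from its group mean (log2) for each C/EBP gene against the within-group GC slope of the library (log2 per 10 points of GC), with a point for each library of the fit. The points of *Cebpa*, *Cebpb* and *Cebpe* rise with the slope, and those of *Cebpg* and *Cebpz* fall.

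Between time points of the GCSF course, the group mean of *Cebpa* also followed the GC slope of the group (r = 0.84 over 28 groups, which differ in time and plate), while in IL3 r was 0.32 over 26 groups. The fit was therefore repeated with the library's GC slope as a covariate, an alternative chosen after the data had been seen. Here the slope was that within the group plus that of the group mean against the mean over groups. The group part was 0.044 at GCSF 0h and -0.193 at GCSF-OHT 168h. Each group has its own mean in the fit, so the coefficient came from differences between wells of a group and was applied to the group slopes. With the covariate, *Cebpa* was called by limma at 0 of 27 GCSF-OHT time points in place of 5, although 21 of them had an interval below 0 (unadjusted p under 0.05). Its 168h value was -0.30 (SE 0.09, adjusted p = 0.0019). In IL3 *Cebpa* was then called lower at 14 of 25 time points in place of 11, and its 168h value was -0.74 (SE 0.08, adjusted p = 3.68e-14).

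*Cebpe* kept its GCSF dip with the covariate at -0.55 (1h) and -0.64 (2h), of which the second was called, and its 168h value went from -0.91 to -0.57 and was no longer called. For GCSF-OHT 168h against undifferentiated cells, *Cebpe* (0.78) and *Cebpz* (-0.73) were called in addition to *Cebpd*. The rise of *Cebpb* in GCSF was called with the covariate at 14 of 27 time points in place of 13. Its 168h value was then 1.22 (SE 0.12, adjusted p = 2.83e-16) in place of 0.84. *Cebpa* and *Cebpe* were called higher in GCSF than in IL3 at 21 and 23 of 25 shared time points, *Cebpd* at 8 in place of 9, and *Cebpb* was called lower at 6 in place of 9. Between-plate differences in GC slope and differences in the cells cannot be told apart at the level of the time points.

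**Figure D5:**
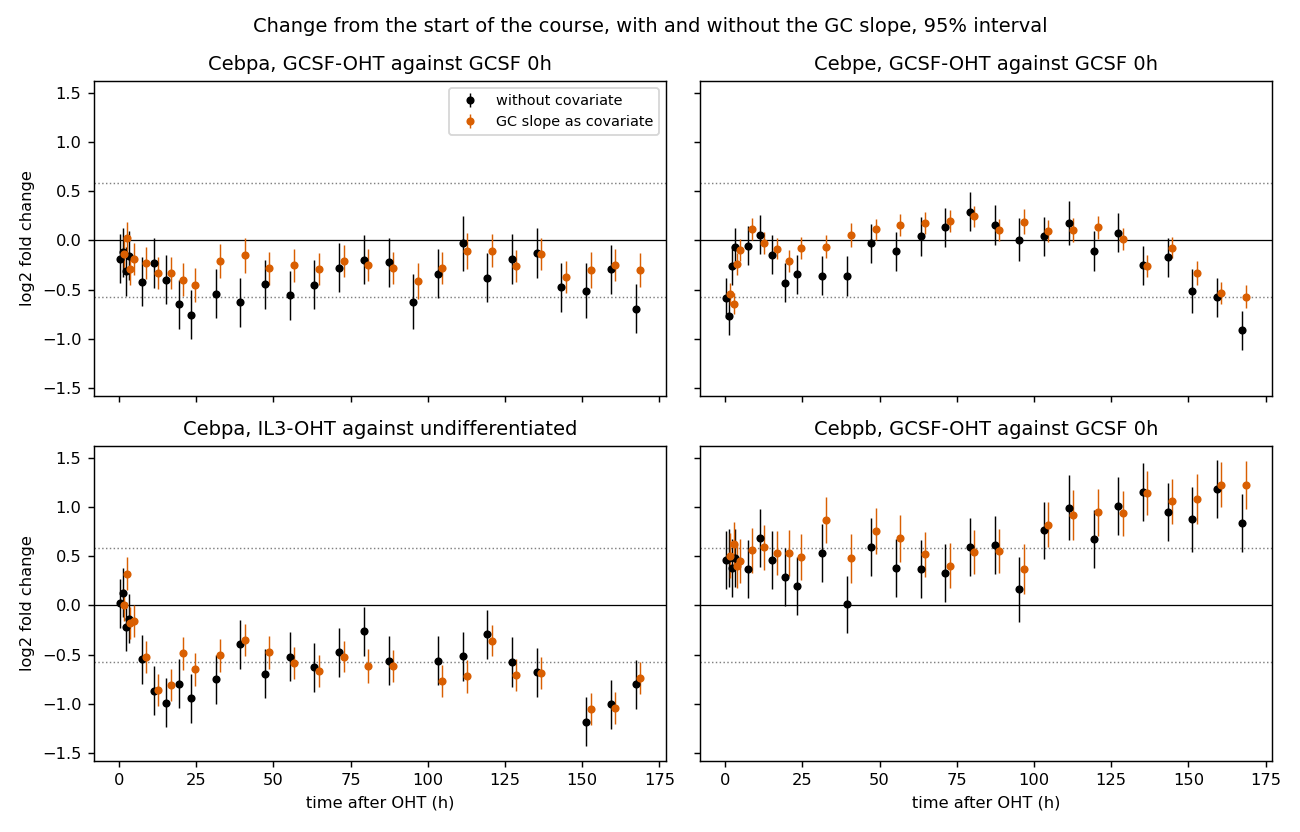
Log2 fold change from the start of the course with 95% intervals against hours after OHT, without (black) and with (orange) the library's GC slope in the fit, for *Cebpa* in GCSF and in IL3, *Cebpe* in GCSF and *Cebpb* in GCSF. In GCSF all *Cebpa* values with the covariate lie within the dotted lines at 0.58, and *Cebpb* stays past them late in the course.

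IL3-OHT 96h and 144h lie 8 hours after a renewal of medium and OHT. At 96h *Cebpz* read 2374, 2265 and 2318 and was called higher than the mean of 88h and 104h (0.81, SE 0.06, adjusted p = 1.53e-24), and it was the only member called, where 17.5% of all genes were. *Cebpe* (0.40) and *Cebpg* (-0.42) stayed under the fold threshold. At 144h no member was called by limma, where 15.4% of genes were, although 4 of 6 had both an unadjusted and an adjusted p under 0.05, with *Cebpe* at 0.51 and *Cebpz* at 0.45. No other tool was run on this comparison.

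Genes that share function with the members are given by lists drawn up for each factor. Earlier results of these data were known when the lists were chosen, so their counts give no independent support. Of 9 tested genes linked to C/EBPα, 8 were called higher in GCSF over the shared time points and none lower (median log2 difference 0.86, all genes -0.06), where 24.5% of all genes were called, among them *Csf3r* (GCSF receptor, 3.35), *Mpo* (myeloperoxidase, 2.19), *Gfi1* (a granulocytic repressor, 1.09) and *Prtn3* (proteinase 3, 1.00). *Cebpe* is itself on that list. Of 11 granule genes linked to C/EBPε, 5 were higher and 1 lower (median 0.57), with *Cybb* (a subunit of the phagocyte oxidase, 3.36), *Camp* (cathelicidin, 1.20) and *Lcn2* (lipocalin 2, 1.15). The lower one was *Prg2*, an eosinophil granule protein, whose values lie near the limit of 3 reads, so that no fold is given.

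From GCSF 0h to 168h, over which *Cebpe* fell, 7 of those 11 granule genes rose and 2 fell (median 2.66, all genes 0.00), where 24.8% of all genes were called, among them *Mmp9* (gelatinase, 8.38), *Chil3* (a lectin, 6.43) and *Cybb* (5.11). Of the 9 genes linked to C/EBPα, 4 rose and 5 fell, with *Lyz2* (lysozyme, 4.37), *Ctsg* (cathepsin G, -1.72), *Gfi1* (-1.52) and *Prtn3* (-1.17). Of 12 inflammatory genes linked to C/EBPβ and C/EBPδ, 7 rose and none fell (median 1.66), led by *Saa3* (serum amyloid A3, 5.68), *Nos2* (nitric oxide synthase, 5.00), *Cxcl2* (a neutrophil chemokine, 2.99) and *Tnf* (2.41). In the pre-treatment, over which *Cebpb* fell and *Cebpd* rose, 9 of those 12 fell and 2 rose (median -1.35, all genes -0.09), where 33.7% of all genes were called, with *Cxcl2* (-4.63), *Ptgs2* (cyclooxygenase 2, -4.34), *Nos2* (-4.12) and *Cd14* (a lipopolysaccharide co-receptor, -3.35).

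Of 7 dimer partners of C/EBP proteins, 6 fell and 1 rose in the pre-treatment, against 33.7% of all genes called, with *Atf3* (-5.26), *Jun* (-2.45), *Ddit3* (CHOP, -1.68) and *Fos* (-1.66), and 6 rose from there to GCSF-OHT 168h (24.8% of all genes called), with *Fos* (3.37), *Jun* (2.49), *Nfil3* (1.17) and *Atf3* (0.82). Of 11 stress genes of ATF4 and C/EBPγ, 5 fell and 1 rose in the pre-treatment (33.7% of all genes called), over which *Cebpg* fell too, with *Slc7a11* (the cystine transporter, -3.82), *Trib3* (a pseudokinase, -2.34), *Ddit3* and *Atf4* (-1.38). Of 17 regulators of C/EBP genes and proteins, 4 rose and 6 fell there (again against 33.7%), among them *Gfi1* (3.14), *Trib1* (which directs C/EBPα to degradation, -2.64), *Trib3* and *Sox4* (-1.69).

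Of 14 large-subunit assembly factors listed with *Cebpz*, 8 were higher and none lower at IL3-OHT 8h (median 0.67, all genes -0.08), where 29.7% of all genes were called, and 6 were lower and none higher at IL3-OHT 168h (median -0.51, all genes -0.03), where 25.4% of all genes were called, with *Rrs1* (-1.16), *Nifk* (-1.15), *Brix1* (-0.81) and *Noc3l* (-0.80). At GCSF-OHT 8h none was higher and 3 were lower (median -0.44), where 9.4% of all genes were called.

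Over the 54 group means of log2 values, which share time, plate and condition, the genes most like each member among 10647 were *Ces2g* (r = 0.94), *Brpf1* and *Ppm1d* for *Cebpa*, *Furin* (0.92), *Rhbdf2* and *Card19* for *Cebpb*, *Jdp2* (0.93), *Arhgef2* and *Sap30* for *Cebpd*, *1700123O20Rik* (0.93), *Ppp6r1* and *Ankrd13a* for *Cebpe*, *Zc3h11a* (0.84), *Dmtf1* and *Gon7* for *Cebpg*, and *Tsr2* (0.96), *Pprc1* and *Ythdf2* for *Cebpz*. Among the members themselves *Cebpa* and *Cebpe* were most alike (r = 0.72), but r was 0.35 within GCSF and 0.13 within IL3, so that the pooled value rests on the difference between conditions. When groups were ordered by the level of a member, 49 to 55 of the 55 pairs of neighbours overlapped in range. Neighbours in such an order lie close by construction and other genes were not counted. Neighbouring ranks are therefore not read as different.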

How the data were processed

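RNA-Seq of polyA RNA from 165 libraries in 56 groups (53 of 3 libraries and 3 of 2) was analysed. The authors aligned reads to GRCm38 with Salmon and deposited 1 table of signal values per gene and library, read counts divided by the DESeq2 median-of-ratios size factor of the library. Tool versions, the step from transcripts to genes and use of strand are not given in the sources used here. Dividing by what 1 read is worth in its library gave a whole number for 100% of values (tolerance 1e-06), so whole reads were recovered.

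Groups were taken from the labels. Values were tested as log2(normalized count + 1) with limma 3.58.1 (R 4.3.3) in 1 fit over 54 groups, with moderated variances and without covariates, over the 17414 genes reaching a normalized count of 5 in at least 1 library. IL3-OHT 96h and 144h entered a separate fit with all libraries. The DEG thresholds were those given above, with Benjamini-Hochberg adjustment. Intervals are 95% intervals. edgeR 4.0.16 and DESeq2 1.42.0 on the recovered reads were alternatives, and the scripts were tested on simulated data. Named genes were the 6 members, the 3 genes most correlated with each, adjacent protein-coding genes within 100000 bp, up to 4 DEGs with the largest change from each list, and *Spi1*. The members and lists were chosen with earlier results of these data known. Depth per library is given above, and the limit of 3 reads covers counting error only. The level of 1 gene of the marker lists is not reported here.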

Additional observations from a re-analysis of the deposited data

Results flagged for a closer look

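The effect of OHT at 168h differed between GCSF and IL3 for 4 of the 6 genes, by a test of the difference itself (limma, GCSF effect minus IL3 effect, each from its own starting libraries). Over all shared time points, 21.5% of all gene and time-point pairs were called in this test (12.8% higher, 8.75% lower). That share varied with time (2.81% of genes at 1h), and the share at 168h alone is not given. The difference was 0.66 for *Cebpb* and 0.87 for *Cebpg*, with the GCSF effect above the IL3 effect. It was -2.07 for *Cebpd* and -1.25 for *Cebpe*, with the GCSF effect below the IL3 effect. These are directions of effects and not of levels at 168h. For all 4 genes GCSF 0h and undifferentiated cells already differed before OHT. Groups held 2 or 3 libraries, too few for the test of single libraries that stand apart.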

How the results depend on the processing

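Of the counts of called members and genes recomputed for each comparison under the alternatives, 219 stayed within 1.5 times the main count and 6 moved further. Whether the same genes were called was not compared for these counts. Of the values and counts of single members, 684 kept direction and side of the threshold (values) or stayed within 1.5 times (counts). Among the rest, 26 counts moved, 10 values changed sign, 10 gained and 2 lost a call. Under upper-quartile scaling 2 members in place of 1 were called between undifferentiated cells and GCSF-OHT 168h, and the mean of *Cebpz* over the shared time points was -0.014 in place of 0.03. That scaling put the median of all genes at -0.148 (GCSF 0h) and -0.169 (GCSF-OHT 168h) against undifferentiated cells. The mean of *Cebpg* over the shared time points, -0.0002, was 0.023 with all time points in the fit, 0.017 with edgeR and TMM, and ran from -0.016 (without replicate 3) to 0.024 (without replicate 2). With the replicate number as a block (replicate block) it was 0.00024, and no other direction and no count of calls by over 1.5 times changed. Same-numbered libraries do not share a source by the labels and their deviations correlated at -0.132 to 0.157 between undifferentiated cells and GCSF 0h, so the numbers were not taken as pairs. Leaving out a replicate gave 1 to 2 calls at IL3-OHT 96h and 144h (2 without replicate 1). Chosen after the data had been seen, the GC slope as a covariate gave 3 calls for GCSF-OHT 168h against undifferentiated cells, 2 in place of 4 from GCSF 0h to 168h and 3 in place of 10 between consecutive time points. *Cebpa* and *Cebpb* at GCSF-OHT 168h against undifferentiated cells were then 0.20 and 0.16, and the shared mean of *Cebpz* -0.021. Also chosen then, the shared time points up to 24h gave 4 calls in place of 2 and -0.25 for *Cebpz*, and those after 24h gave 0.12 for *Cebpg*. The cause of these changes was not tested, and the time windows also hold fewer time points. The counts of all genes called by edgeR stayed within 1.5 times those of limma. Depth did not limit the members, whose counts were far above 3 reads in every library. The number of wells and the single plate per time point limit what can be told, and values near the fold threshold change calls with small shifts.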
